A study of Homo sapiens with 4 samples.

Results

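The BCL2 family decides whether a cell goes through the mitochondrial, or intrinsic, route of apoptosis. The 10 genes described here are BCL2, BCL2L1 and MCL1 (anti-apoptotic), BAX and BAK1 (effectors) and BBC3, PMAIP1, BID, BIK and BCL2L11 (BH3-only), taken by symbol from the 18806 genes of the deposited table, where all 10 had a row. In background terms, BAX and BAK1 form pores in the mitochondrial outer membrane that release cytochrome c. Anti-apoptotic members bind and restrain them, and BH3-only proteins, which respond to stress, bind the anti-apoptotic members or activate the effectors directly. Because the members act by binding one another, the level of one relative to another is a usual way to look at the family.

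RNA-seq was carried out in Huh7, a hepatocellular carcinoma cell line of human origin. A single Huh7 clone that stably expressed Cas9 was transduced with a non-targeting guide (sgNS, 2 libraries) or with a guide against METTL16, a methyltransferase of N6-methyladenosine (METTL16 KO, 2 libraries), and both groups were selected with hygromycin B. The genotype label of the second group reads METTL16 knockdown, and the figures of the study show 1 METTL16 guide in both of its libraries, so that an effect of this guide and the loss of METTL16 cannot be told apart, and both groups come from the same clone. The comparison asks how the RNA of the family stood upon METTL16 KO. The values are TPM, a relative transcript level corrected for transcript length that sums to 1000000 in each library, and they keep no read counts, so depth and counting error are unknown. The methods speak of biological replicates, but neither they nor the labels say whether these were separate cultures or transductions, so p-values measure the spread between these libraries only.

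METTL16 itself (GRCh38, chromosome 17, minus strand, 2405562 to 2511891) was lower in METTL16 KO, with a log2 change of -0.50 (SE 0.062, limma adjusted p = 2.4e-05). RNA-seq does not show its protein. The 8 hepatocyte and hepatoma markers looked for were all above 1 TPM, with a sum of 17691 and 17769 TPM in sgNS and of 30035 and 29623 TPM in METTL16 KO. Most of that difference was in AFP (1737 and 1793 TPM in sgNS, 10387 and 10197 TPM in METTL16 KO), while TF and APOB were lower in METTL16 KO. Of the 5 leukocyte markers, LYZ made up nearly all of the sum (1512 and 1555 TPM against 912 and 926 TPM) and PTPRC was at 0.48 TPM or less in each library. The 5 fibroblast and stellate markers summed to 2.29 to 3.1 TPM over the libraries and the 4 endothelial markers to 2.73 to 5.15 TPM, nearly all of it PECAM1, with KDR listed at 0. The 3 biliary markers summed to 230.4 and 231.3 TPM in the sgNS libraries, compared with 207.5 and 207.1 TPM in the METTL16 KO libraries, nearly all of it SOX9. The number of genes at 1 TPM or more was 11723 to 11768 in sgNS and 12051 to 12074 in METTL16 KO. The 100 most abundant genes took 32.6% and 32.8% of the total in sgNS but 28.6% and 28.7% in METTL16 KO. In the 11971 genes tested (mean of at least 1 TPM), the median log2 fold change was 0.16, and the change of each member tested is therefore also given after median-ratio scaling, which divides a library by its median ratio to the average library and brings that median to -0.0016.

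Upon METTL16 KO the RNA of the family was redistributed toward its anti-apoptotic members. BCL2L1 and MCL1 rose to 1.69 and 1.59 times their mean in sgNS, the effector BAX and the BH3-only gene BBC3 fell, and BID, BCL2L11 and PMAIP1 rose. Of the 8 members past the minimum of 1 TPM, 6 were higher and 2 lower in limma (adjusted p under 0.05), and the libraries of the groups did not overlap in any of the 8 (6 higher and 2 lower, where 56.8% of all genes tested were higher and 30.7% lower with no overlap), each of which was above 1 TPM in all 4 libraries. Among all genes tested, 50.1% were higher and 25.6% lower by the same rule, so most genes passed in one direction or the other. After median-ratio scaling 5 members were higher, 2 were lower and BAK1 did not pass, against a background of 36.4% higher and 36.5% lower. The median log2 fold change was 0.52 over the 8 members and 0.16 over all genes tested. None of the 8 reached an absolute log2 fold change of 1, the fold threshold of the study, which together with an unadjusted p under 0.01 took in 11.4% of all genes tested.

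**Figure D1:**
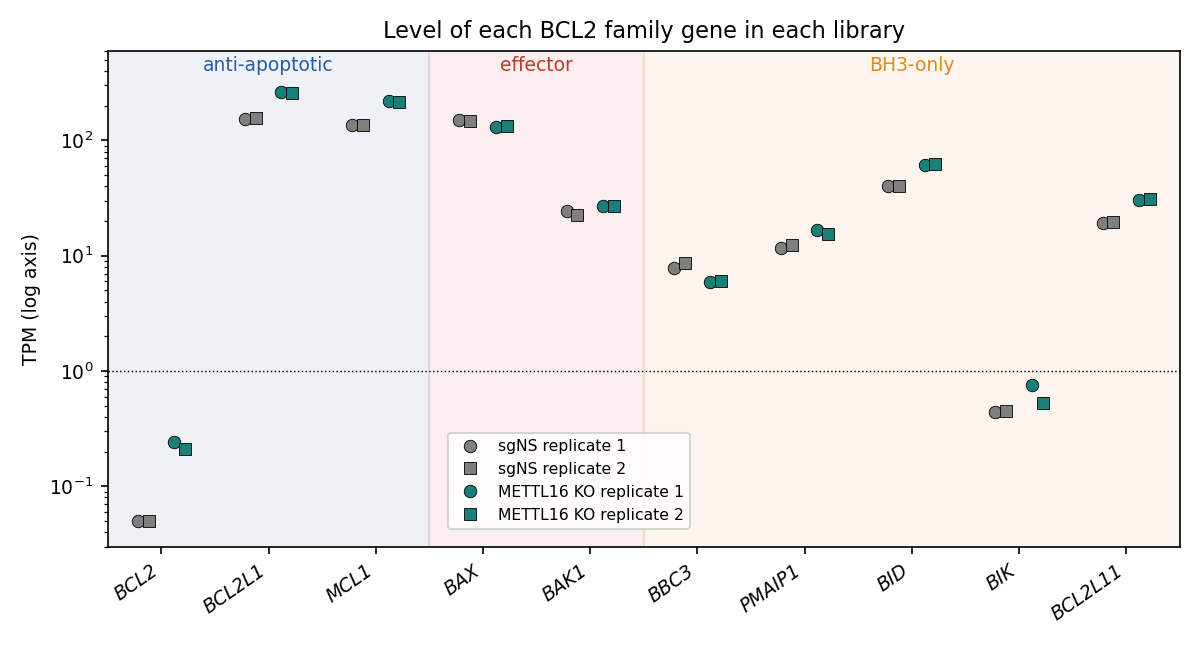
TPM on a log axis (vertical) for each of the 10 BCL2 family genes (horizontal, shaded by role) in the 2 sgNS libraries (grey) and the 2 METTL16 KO libraries (green), with the minimum of 1 TPM as a dotted line. BCL2L1, MCL1 and BAX sit close together in sgNS, at means of 154.7, 136.3 and 149.1 TPM, and part in METTL16 KO, at means of 261.8, 216.2 and 131.6 TPM.

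Because the genes of 1 family moved in opposite directions, sequences before the start sites are shown for members of both kinds. Shown are the 2 that fell, BAX and BBC3, and 2 of those that rose, BCL2L11 and PMAIP1. BCL2L1 and BID also rose, and their windows are described below without being printed. All sequences are RefSeq promoters on GRCh38.p14, searched over the 250 bases before each start on both strands. Each is printed 5′ to 3′ on the gene's strand without the bases that an exon of the gene in GENCODE 44 covers. Capitals mark each match to the GC box (GGGCGG), the CCAAT box (CCAAT), the E-box (CACGTG) to which MYC and USF proteins bind, the cyclic AMP element (TGACGTCA), the C/EBP-ATF element (TGATGNAA), the STAT element (TTCNNNGAA) or the NF-kB element. The BAX stretch covers chr19:48954625-48954814 (plus strand) and that of BBC3 chr19:47232767-47232917 (minus). That of BCL2L11 covers chr2:111120664-111120913 (plus) and lies inside the gene, which starts at 111119378 in GENCODE 44. That of PMAIP1 covers chr18:59899746-59899995 (plus).
BAX: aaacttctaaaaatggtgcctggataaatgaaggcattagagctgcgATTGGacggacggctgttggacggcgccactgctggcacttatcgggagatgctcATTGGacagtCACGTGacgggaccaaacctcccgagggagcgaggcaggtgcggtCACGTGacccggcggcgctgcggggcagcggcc
BBC3: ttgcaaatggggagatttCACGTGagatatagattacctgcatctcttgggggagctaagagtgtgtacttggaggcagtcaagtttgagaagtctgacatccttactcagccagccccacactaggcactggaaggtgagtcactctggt
BCL2L11: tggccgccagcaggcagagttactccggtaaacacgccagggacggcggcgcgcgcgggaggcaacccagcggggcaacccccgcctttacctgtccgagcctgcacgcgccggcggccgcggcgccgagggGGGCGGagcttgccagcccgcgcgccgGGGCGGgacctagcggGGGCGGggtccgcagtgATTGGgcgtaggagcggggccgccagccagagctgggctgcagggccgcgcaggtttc
PMAIP1: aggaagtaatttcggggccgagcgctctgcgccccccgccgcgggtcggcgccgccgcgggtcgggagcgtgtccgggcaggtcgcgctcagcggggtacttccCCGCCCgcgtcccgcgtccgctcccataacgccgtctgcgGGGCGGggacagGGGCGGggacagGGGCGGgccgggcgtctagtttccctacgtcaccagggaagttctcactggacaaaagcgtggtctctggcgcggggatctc

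The searched window of BAX held 4 E-boxes, starting 138, 93, 45 and 14 bases before the start site, of which the first 2 are in the printed stretch. At least 1 E-box was found in 6.32% of all 34943 RefSeq promoters of this length and at least 4 in 0.0143%. BBC3 held 1 E-box, starting 232 bases before its start site, and the E-box was also found in 2 of the 5 windows of BID, which overlap in part and belong to a gene that rose. PMAIP1 held 4 GC boxes and BCL2L11 held 3, where 42.5% of all promoters held at least 1, 13.8% at least 3 and 7.6% at least 4. BAX, BAK1 and 4 of the 5 windows of BID held the GC box as well, that of BAX outside its printed stretch. The CCAAT box was found in the windows of BAX, BBC3, BCL2L11 and BAK1 and in 32.0% of all promoters. That of BBC3, starting 87 bases before its start site, lies outside the printed stretch. None of the 13 windows of 8 members held the cyclic AMP element (1.63% of all promoters), the C/EBP-ATF element (3.15%), the STAT element (6.56%) or the NF-kB element (9.95%), which says only that these letters are not in these windows. The windows of BCL2 and BCL2L1 held none of the motifs. MCL1 and BIK had no entry.

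BCL2L1 encodes the anti-apoptotic protein BCL-XL and, by another splice choice, the pro-apoptotic BCL-XS, which a gene-level value does not separate. Its position in GRCh38 is chromosome 20, minus strand, 31664452 to 31723989. It stood at 153.86 and 155.53 TPM in the sgNS libraries, compared with 265.0 and 258.58 TPM in the METTL16 KO libraries, so that both METTL16 KO libraries were far above both sgNS libraries. This was the largest change among the 8 members tested, with a log2 change of 0.76 (SE 0.034, limma adjusted p = 8.7e-09) and 0.59 after median-ratio scaling. Among all genes tested, that fold change lay at percentile 87.2. By Euclidean distance of centred log2 values, the 3 profiles nearest to BCL2L1 were those of DDX11 (distance 0.0090), EXOC6B (0.011) and EPCAM (0.015). Over 4 libraries in 2 groups, such nearness mostly reflects a similar log2 fold change (0.76, 0.76 and 0.75). Shared regulation was not tested.

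MCL1, on chromosome 1 (minus strand, 150560895 to 150579738), encodes a short-lived anti-apoptotic protein that holds BAK1 and BCL2L11 protein in check. Its level was 137.08 and 135.45 TPM in the sgNS libraries, compared with 219.0 and 213.49 TPM in the METTL16 KO libraries. The groups were again well apart, with a log2 change of 0.67 (SE 0.035, limma adjusted p = 3.1e-08) and 0.50 after median-ratio scaling. Exons of MCL1 overlap ADAMTSL4 on the other strand, and ADAMTSL4 was at 16.01 and 13.57 TPM in the sgNS libraries, compared with 11.79 and 12.0 TPM in the METTL16 KO libraries, lower where MCL1 was higher. The kit was stranded, but whether the counting used strand is not given in the sources used here. Exons of MCL1 also overlap ADAMTSL4-AS1 on the same strand, which had no row and whose reads strand could not separate. Exons of BCL2L1, BAK1, BBC3 and BCL2L11 also overlap genes on the other strand, which had no row. Those of BBC3 overlap MIR3191 on the same strand as well, also without a row.

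BCL2, the founding anti-apoptotic member, was barely present in these cells. It read 0.05 TPM in each sgNS library, compared with 0.24 and 0.21 TPM in the METTL16 KO libraries. The gene (chromosome 18, minus strand, 63123346 to 63320128) was therefore under the minimum and was not tested. It passed only when all genes above 0 in at least 1 library were fitted, with a log2 change of 1.11 (limma, adjusted p = 0.0087). Its sgNS values lay under the pseudocount of 0.1 and were rounded to 2 decimals, so the size of this change and its p-value depend on both. Even in METTL16 KO it made up 0.030% of the summed TPM of the family, against 34.8% for BCL2L1 and 28.7% for MCL1.

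Of the effectors, BAX fell and BAK1 lay close to the median gene. BAX (chromosome 19, plus strand, 48954815 to 48961798) was at 150.4 and 147.84 TPM in the sgNS libraries, compared with 130.92 and 132.2 TPM in the METTL16 KO libraries. Both METTL16 KO libraries were lower, by a log2 change of -0.18 (SE 0.036, limma adjusted p = 8.3e-04), and by -0.35 after median-ratio scaling. BAK1 (chromosome 6, minus strand, 33572547 to 33580293) was at 24.48 and 22.39 TPM in the sgNS libraries, compared with 26.75 and 27.19 TPM in the METTL16 KO libraries. Its log2 change of 0.20 (SE 0.061, limma adjusted p = 0.011) was close to the median gene, and it was 0.038 after median-ratio scaling with an adjusted p of 0.58. BAK1 also did not pass without sgNS replicate 2 (0.14, adjusted p of 0.059), without METTL16 KO replicate 1 (0.21, adjusted p of 0.065) or without METTL16 KO replicate 2 (0.19, adjusted p of 0.092), all in limma. BAK1 has 2 processed pseudogenes in GENCODE 44, with which reads could be shared. BAX was the main effector by level, at 6.14 and 6.60 times BAK1 in sgNS and 4.89 and 4.86 times in METTL16 KO.

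**Figure D2:**
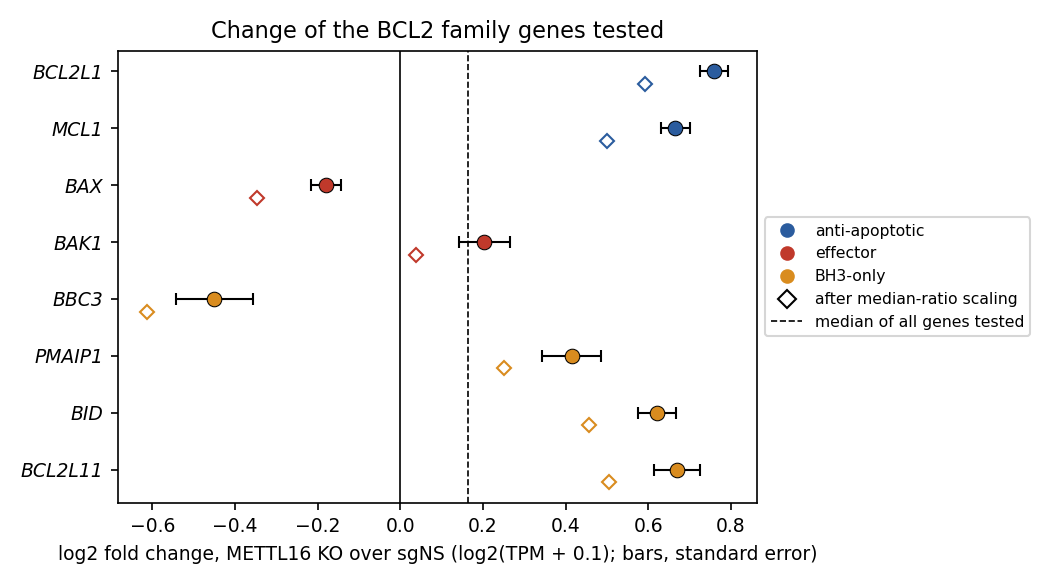
Log2 fold change of METTL16 KO over sgNS (horizontal) for the 8 members tested (vertical), coloured by role, with bars for the standard error from limma, open diamonds for the value after median-ratio scaling and a dashed line for the median of all genes tested (0.16). BCL2L1, MCL1, BID, BCL2L11 and PMAIP1 lie to the right of the dashed line under both scalings, BAX and BBC3 lie below 0, and BAK1 lies close to the line.

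The BH3-only genes differed among themselves. BCL2L11, which encodes BIM, a potent activator that binds every anti-apoptotic member, was at 19.16 and 19.61 TPM in the sgNS libraries, compared with 30.48 and 31.28 TPM in the METTL16 KO libraries. It lies on the plus strand of chromosome 2 from 111119378 to 111168444. Its log2 fold change was 0.67 (SE 0.056, limma adjusted p = 1.1e-06), or 0.50 after median-ratio scaling, with no overlap between the groups.

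BID, cleaved by caspase-8 to link death receptors to the mitochondria, was the most abundant BH3-only gene of the 5. It was at 40.07 and 40.21 TPM in the sgNS libraries, compared with 61.38 and 62.2 TPM in the METTL16 KO libraries, both well above sgNS. The log2 fold change of this gene (chromosome 22, minus strand, 17734138 to 17774770) was 0.62 (SE 0.045, limma adjusted p = 3.7e-07) and 0.46 after median-ratio scaling.

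PMAIP1 encodes NOXA, a selective partner of MCL1, on the plus strand of chromosome 18 from 59899996 to 59904305. It stood at 11.65 and 12.41 TPM in the sgNS libraries, compared with 16.57 and 15.56 TPM in the METTL16 KO libraries. Both METTL16 KO libraries were higher, with a log2 change of 0.41 (SE 0.072, limma adjusted p = 3.1e-04) and 0.25 after median-ratio scaling.

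BBC3, on the minus strand of chromosome 19 from 47220822 to 47232766, encodes PUMA and moved the other way. Its level was 7.81 and 8.58 TPM in the sgNS libraries, compared with 5.93 and 6.0 TPM in the METTL16 KO libraries. With no overlap between the groups, its log2 fold change was -0.45 (SE 0.092, limma adjusted p = 0.0010) and -0.61 after median-ratio scaling, the lowest of the 8 members tested under both. BBC3 and PMAIP1, both BH3-only genes, thus lay on opposite sides of 0.

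BIK, a BH3-only gene of the endoplasmic reticulum (chromosome 22, plus strand, 43110750 to 43129712), was under the minimum. It was listed at 0.44 and 0.45 TPM in the sgNS libraries, compared with 0.76 and 0.53 TPM in the METTL16 KO libraries. In the fit of all genes above 0 in at least 1 library its log2 change was 0.43 (limma, adjusted p = 0.17).

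Levels per transcript length gave the same order in most places of both groups. In sgNS the order from the highest mean TPM was BCL2L1, BAX, MCL1, BID, BAK1, BCL2L11, PMAIP1, BBC3, BIK and BCL2. In METTL16 KO, MCL1 stood above BAX and BCL2L11 above BAK1, with the other positions as in sgNS. The libraries of each pair of neighbours in both orders were apart, though with 2 libraries a group this is a description.

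Summed by role, the anti-apoptotic genes rose most, and the direction of the pro-apoptotic sum (effectors and BH3-only genes) depended on scaling. The mean of that sum was 252.75 TPM in sgNS and 273.9 TPM in METTL16 KO. After median-ratio scaling it was 267.6 and 258.5 TPM. Each gene was counted wholly under its role, so the BCL-XS form of BCL2L1 counts as anti-apoptotic. The 3 anti-apoptotic genes summed to 290.99 and 291.03 TPM in the sgNS libraries, compared with 484.24 and 472.28 TPM in the METTL16 KO libraries. The 2 effectors summed to 174.88 and 170.23 TPM in the sgNS libraries, compared with 157.67 and 159.39 TPM in the METTL16 KO libraries, a lower sum in both METTL16 KO libraries. The 5 BH3-only genes summed to 79.13 and 81.26 TPM in the sgNS libraries, compared with 115.12 and 115.57 TPM in the METTL16 KO libraries.

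As shares of the summed TPM of the 10 members, the anti-apoptotic genes went from 53.5% ± 0.18 (SD, n = 2) to 63.6% ± 0.54 (SD, n = 2). The effectors went from 31.7% ± 0.50 to 21.1% ± 0.36. Other family genes described below, such as BAD and BMF, which rose, and BOK, which fell, are not in these sums. The BH3-only share was 14.7% ± 0.32 in sgNS and 15.3% ± 0.18 in METTL16 KO. A ratio within a library does not change when a library is scaled by 1 factor. The pro-apoptotic sum (effectors and BH3-only genes) was 0.873 and 0.864 of the anti-apoptotic sum in sgNS and 0.563 and 0.582 of it in METTL16 KO. On the log2 scale this ratio was lower by a difference of -0.60, with an exact two-sided permutation p of 0.33, the smallest that 2 libraries against 2 can give. The difference was -0.84 for the log2 ratio of the effectors to the anti-apoptotic sum and -0.19 for that of the BH3-only genes. Both of these also had an exact two-sided permutation p of 0.33.

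**Figure D3:**
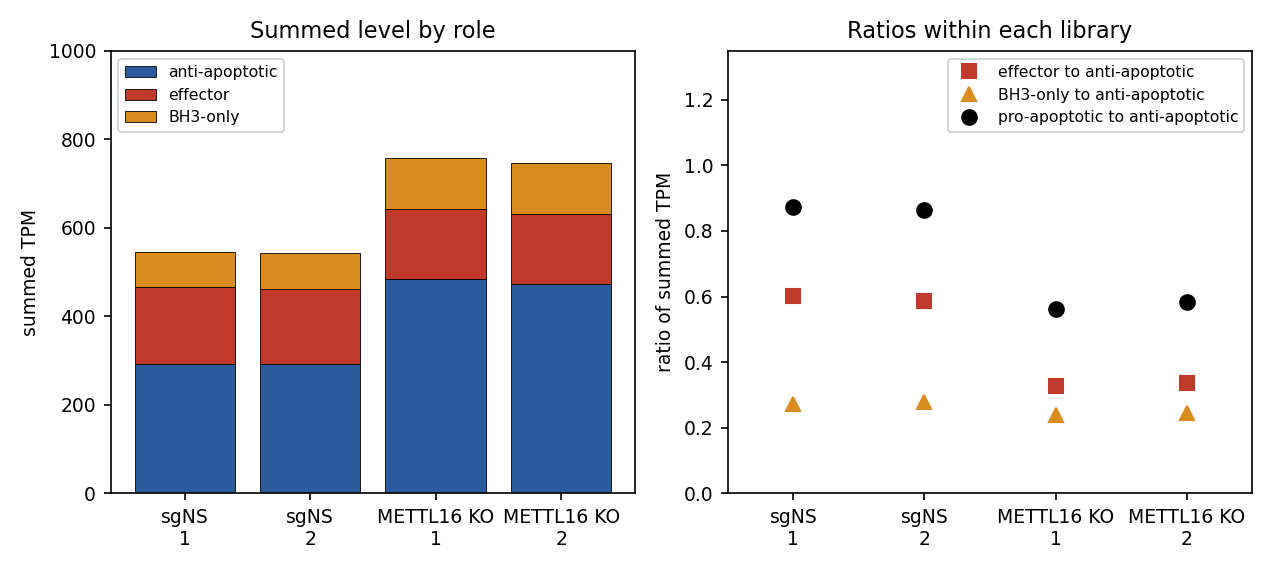
Left, stacked bars of summed TPM (vertical) for the anti-apoptotic, effector and BH3-only genes in each of the 4 libraries. Right, ratios of these sums within each library (vertical), where the pro-apoptotic to anti-apoptotic ratio sits at 0.873 and 0.864 in sgNS and at 0.563 and 0.582 in METTL16 KO and the effector ratio shows the larger gap.

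Ratios of single members were also taken within each library. BAX stood at 0.978 and 0.951 times BCL2L1 in sgNS and at 0.494 and 0.511 times in METTL16 KO. BBC3 was 0.0570 and 0.0633 times MCL1 in sgNS and 0.0271 and 0.0281 times in METTL16 KO. The ratio of BCL2L11 to MCL1 hardly differed, at 0.140 and 0.145 times in sgNS and at 0.139 and 0.147 times in METTL16 KO, and these groups overlapped. Relative to BCL2L1, BCL2L11 was lower, at 0.125 and 0.126 times in sgNS and at 0.115 and 0.121 times in METTL16 KO. BID was also lower relative to BCL2L1, at 0.260 and 0.259 times in sgNS and at 0.232 and 0.241 times in METTL16 KO. The ratio of PMAIP1 to MCL1 was 0.0850 and 0.0916 in sgNS and 0.0757 and 0.0729 in METTL16 KO, with no overlap. Protein was not measured in these libraries, so none of these ratios is one of proteins.

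The other BCL2 family genes also went both ways. Of 14 genes listed, 10 passed the minimum, of which 6 were higher and 4 lower by limma (adjusted p under 0.05), beside 50.1% and 25.6% of all genes. The median log2 change was 0.20 against 0.16 for all genes. BOK, an effector-like relative of BAX and BAK1, fell most, with 15.7 ± 0.80 TPM in sgNS and 8.09 ± 0.38 TPM in METTL16 KO (SD, n = 2 each), a log2 change of -0.95 (limma, adjusted p = 9.4e-07). BCL2L14 rose from 2.13 ± 0.29 to 5.78 ± 0.69 TPM, a log2 fold change of 1.40, and was the only one of the 10 past the thresholds of the study, although BOK also passed them after median-ratio scaling, at -1.12, where BCL2L14 was at 1.23.

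BAD and BMF, both BH3-only genes, rose with log2 fold changes of 0.81 and 0.53 (0.65 and 0.37 after median-ratio scaling). BNIP3 fell by 0.50 on the log2 scale and BNIP3L fell by 0.31, both of them genes of mitophagy, and BCL2L12 fell by 0.30. After median-ratio scaling these 3 genes were at -0.66, -0.48 and -0.47. BECN1, the autophagy gene with a BH3 motif, rose by 0.34, or 0.18 after that scaling. BCL2L2, which encodes the anti-apoptotic BCL-W, and BCL2L13 had log2 fold changes of 0.29 and 0.11, but after median-ratio scaling they stood at 0.13 and -0.052 and neither passed. The calls of both were also lost without sgNS replicate 2 and without METTL16 KO replicate 2 (limma adjusted p from 0.063 to 0.27), and that of BCL2L13 without METTL16 KO replicate 1 (limma adjusted p = 0.053). BCL2A1, BCL2L10, BCL2L15 and HRK were under the minimum, at 0.68 TPM or less in each library.

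Downstream of the mitochondrial membrane, 19 genes were tested (pore proteins, cytochrome c, the apoptosome, caspases and their inhibitors). Of these, 12 were higher and 1 lower by limma (adjusted p under 0.05), beside 50.1% and 25.6% of all genes. The median log2 change was 0.32, and 10 were higher and 5 lower after median-ratio scaling (36.4% and 36.5% of all genes). BIRC3, an inhibitor of apoptosis of the cIAP type, stood furthest apart, with 0.595 ± 0.021 TPM in sgNS and 7.74 ± 0.071 TPM in METTL16 KO (SD, n = 2 each). It was under 1 TPM in both sgNS libraries and passed the minimum only through METTL16 KO, so its test is not given. It is still counted in the 12 and in the 10 higher genes above. VDAC3, a porin of the outer membrane, was the 1 lower gene, with a log2 fold change of -0.091 (adjusted p of 0.035 in limma) and -0.26 after median-ratio scaling, and its call was lost without sgNS replicate 2 and without either METTL16 KO replicate, with limma adjusted p-values from 0.096 to 0.21.

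**Figure D4:**
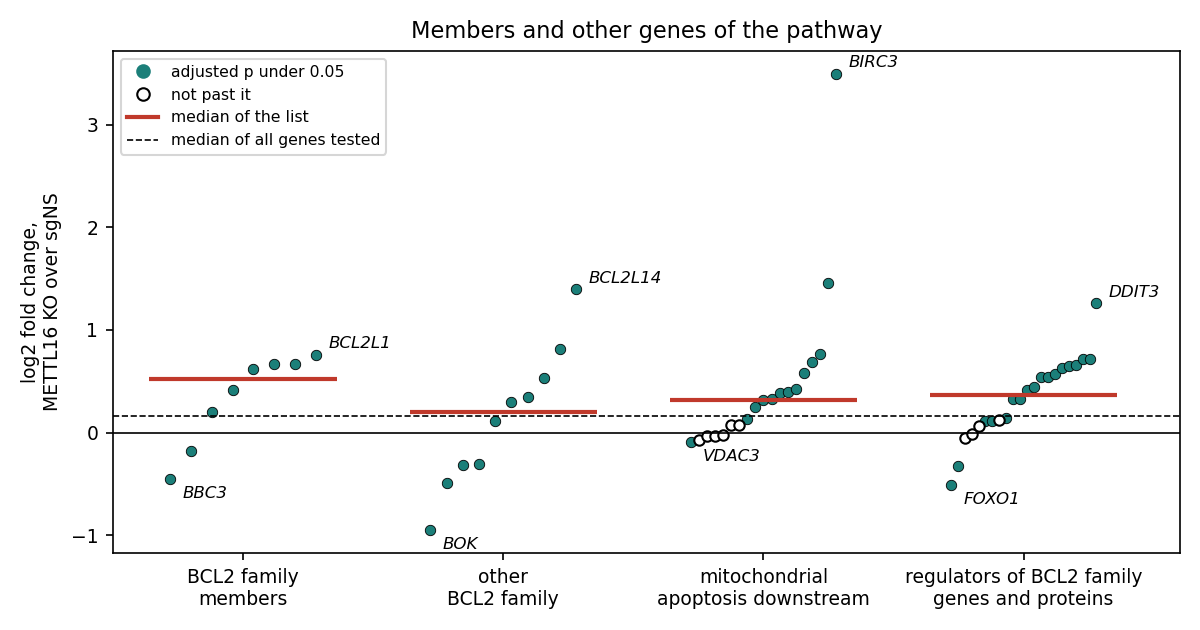
Log2 fold change of METTL16 KO over sgNS (vertical) for the genes tested in 4 lists (horizontal), with filled points for an adjusted p under 0.05 in limma, red bars for the list medians (0.52, 0.20, 0.32 and 0.37 from left to right) and a dashed line for the median of all genes tested (0.16). The members span -0.45 for BBC3 to 0.76 for BCL2L1, and the highest point of the lists is BIRC3, which passed the minimum only through METTL16 KO.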

How the data were processed

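The 4 libraries of Huh7 cells (2 sgNS, 2 METTL16 KO) were grouped by their titles. The authors deposited 1 table of TPM values per gene symbol, rounded to 2 decimals. According to the methods of the study and the labels, reads were trimmed with Cutadapt, mapped to GRCh38 with STAR and quantified with RSEM, while versions and annotation are not given in the sources used here. The deposited columns each add up to 1000000, as TPM does, and were used as TPM although the methods name RPKM. The labels name both ribosomal RNA depletion and an mRNA kit. Depth is unknown.

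From these, log2(TPM + 0.1) values were taken for each of 11971 genes (mean TPM of at least 1), and METTL16 KO was compared with sgNS in limma 3.58.1 (R 4.3.3) with a mean-variance trend and no block, two-sided, with Benjamini-Hochberg adjustment over all genes tested. The model was tested on simulated data. Fold changes on this scale understate those of low genes. The members and lists were chosen with earlier results of these data known. All 10 members and METTL16 are named, of the other BCL2 family all genes, and of the other 2 lists up to 3 rises and 3 falls with the largest change among those called with groups apart, and the 3 genes nearest in profile to the member that changed most. Positions are from GENCODE 44, promoters and motif matches from RefSeq on GRCh38.p14 (8 of 10 members matched). Python 3.11.15, scipy 1.17.1 and matplotlib 3.10.9 were used. Single values of some genes of the lists are not reported here. Alternatives were 2 other pseudocounts, 2 other minimum levels, 2 scalings, the replicate block, limma without trend, an ordinary linear model and each library left out.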

Additional observations from a re-analysis of the deposited data

How the results depend on the processing

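BCL2L1, MCL1, BAX, BBC3, PMAIP1, BID and BCL2L11 kept their direction and their call (adjusted p under 0.05) in all 13 alternatives. BAK1 kept its direction but lost its call under 6 of them, namely both scalings, 3 of the 4 left-out libraries and the ordinary linear model (adjusted p of 0.12). The number of members higher was 6, ranged from 5 to 6 when a library was left out, and was 7 with all genes above 0 in at least 1 library, where BCL2 was added. The number lower was 2 throughout. METTL16 was lower under all of them, from -0.54 to -0.45 with a library left out.

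Over the 3 pathway lists, 34 of the 51 genes tested were higher and 7 lower, with BIRC3 counted among the higher. With median-ratio scaling 26 were higher and 13 lower, and with quantile normalization 27 and 13. Both take out the upward shift of the median gene. Higher genes numbered 27 to 33 and lower ones 6 to 7 with a library left out. In the ordinary linear model 24 were higher and 5 lower, and in limma without trend 29 and 6. BAD, BNIP3L, BCL2L2, BCL2L13 and VDAC3 were among those that lost their calls in the ordinary linear model (adjusted p of 0.066, 0.054, 0.16, 0.16 and 0.10). BCL2L13 and VDAC3 also lost theirs in limma without trend, and BCL2L2 and BCL2L13 with all genes above 0 in at least 1 library. BCL2L13 turned to -0.052 with median-ratio scaling and to -0.020 with quantile normalization. The log2 ratio of pro- to anti-apoptotic sums was -0.60 and moved to -0.65 with quantile normalization, where the cause was not tested, and ranged from -0.62 to -0.58 with a library left out. Over all genes tested, 50.1% were higher and 25.6% lower, against 36.4% and 36.5% with median-ratio scaling.

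The groups share replicate numbers. With the replicate block 6 members were higher and 2 lower, and 34 and 7 pathway genes, as without it. Deviations of same-numbered libraries had a correlation of -0.044 across genes, so the numbers were not taken to pair the libraries. TPM values keep no depth, so limits of detection of BCL2 and BIK cannot be given.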

Other observations

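Genes known to act on the BCL2 family, by transcription or on its proteins, were looked at as a further list. Of 24 genes listed, 22 passed the minimum, of which 16 were higher and 2 lower by limma (adjusted p under 0.05), beside 50.1% and 25.6% of all genes. The median log2 change was 0.37 against 0.16 for all genes. After median-ratio scaling 12 were higher and 4 lower (36.4% and 36.5% of all genes). DDIT3, which encodes the stress factor CHOP, was at 30.66 and 32.12 TPM in the sgNS libraries, compared with 72.74 and 77.84 TPM in the METTL16 KO libraries, a log2 change of 1.26 (limma, adjusted p = 4.7e-09) and of 1.09 after that scaling. STAT3 and MYC, both transcription factors, had log2 fold changes of 0.72 and 0.72 and passed in the same test (0.55 and 0.55 after scaling). YWHAZ, a 14-3-3 protein of the kind that binds phosphorylated BAD, fell by 0.33 on the log2 scale, and FOXO1, a forkhead factor, fell by 0.51 (-0.49 and -0.68 after scaling). The part of any of these regulators in the changes of the family was not tested.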
